A study of Mus musculus with 5 samples.

Results

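The type I interferon response is the antiviral gene programme that cells switch on when interferon alpha or beta reaches them. The 32 genes described here were chosen by name: the factors that carry the signal into the nucleus, the sensors of foreign RNA, and the antiviral effectors, with the GBP and IRG GTPases left out. All 32 were found among the 17818 gene symbols of the table. They were chosen with earlier results on these libraries known, so their levels are described and no test was made of the list.

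The tissue was the heart of male mice, taken 12 months after bone marrow transplantation, and its messenger RNA was sequenced. The control group was 1 library of genotype WT given vector. The second group was 2 libraries of genotype Tet2+/- given vector, and the third was 2 libraries of genotype Tet2+/- given Oridonin, a plant diterpenoid, and the time label reads 2 months for every sample. The sample titles differ from it: they give 1 month for replicate 1 and 2 month for replicate 2. That number was taken as a replicate number only, and if it is a treatment time, the replicate differences, standard errors and left-out libraries below also carry time, which cannot be told apart. Every animal carried a transplant, so no group shows a heart without it. The sources used here give no strain, no age and no account of how recipients were conditioned or which cells carried the Tet2 allele. TET2 is a DNA demethylase of blood stem cells and other cells. The Tet2 transcript did not follow the genotype in whole heart: it was at 15.6 CPM (defined below) in WT, 19.2 and 7.76 CPM under vector and 9.43 and 17.9 CPM with oridonin, so its level does not check the labels.

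In the textbook pathway, RNA sensors such as the product of Ifih1 lead to the making of interferon, which binds the receptor IFNAR. The kinases JAK1 and TYK2 then phosphorylate STAT2, which joins IRF9 within the complex ISGF3. ISGF3 binds a DNA element called ISRE in front of its target genes, and the targets include most of the genes below as well as Stat2, Irf9 and Irf7 themselves. In the heart, cardiomyocytes, endothelial cells, fibroblasts and macrophages can each run this programme. A library of whole tissue adds them up, so more cells of a type and more RNA per cell cannot be told apart.

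The DNA in front of several members shows the element that ISGF3 reads. RefSeq promoter sequences (GRCm38.p6) were on hand for 23 of the 32 members. The 250 bases before each start were searched on both strands for the ISRE core, which is GAAA, then 2 bases of any kind, then GAAA (TTTC, 2 bases, TTTC on the other strand), and matches may overlap. It was found in 8 of the 23, or 34.8%, against 3.46% of 27025 genes with such a sequence and 3.15% of 9862 such genes that were tested here. The GAS core TTCNNNGAA, an element of interferon gamma targets, was found in 5 of the 23, or 21.7%, against 8.13% of the 27025 genes. A match is only a run of letters, and its absence from this window says nothing about the factor.

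The following 7 stretches are shown because they carry the ISRE core, in capitals, in front of members whose levels the results turn on. Each is read 5′ to 3′ along the gene and ends at the base before the start. Ifit1 is chr19:34640749-34640888 (plus strand), Ifit3 chr19:34583363-34583528 (plus), Ifit3b chr19:34607759-34607956 (plus), Isg15 chr4:156200819-156200958 (minus), Bst2 chr8:71537473-71537612 (minus), Oas1a chr5:120907526-120907665 (minus) and Rsad2 chr12:26456453-26456592 (minus), all in GRCm38.p6.
Ifit1: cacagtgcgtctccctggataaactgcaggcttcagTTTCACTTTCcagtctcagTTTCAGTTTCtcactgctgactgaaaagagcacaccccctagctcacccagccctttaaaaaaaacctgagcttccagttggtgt
Ifit3: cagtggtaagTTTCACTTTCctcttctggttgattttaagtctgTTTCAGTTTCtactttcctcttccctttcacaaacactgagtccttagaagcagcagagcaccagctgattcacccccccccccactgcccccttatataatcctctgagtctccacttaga
Ifit3b: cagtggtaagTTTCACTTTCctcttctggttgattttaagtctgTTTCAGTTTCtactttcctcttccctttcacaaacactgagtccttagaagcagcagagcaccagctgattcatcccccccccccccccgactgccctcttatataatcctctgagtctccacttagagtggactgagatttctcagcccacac
Isg15: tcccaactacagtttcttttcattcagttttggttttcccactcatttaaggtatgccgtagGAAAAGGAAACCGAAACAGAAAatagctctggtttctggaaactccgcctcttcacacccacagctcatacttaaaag
Bst2: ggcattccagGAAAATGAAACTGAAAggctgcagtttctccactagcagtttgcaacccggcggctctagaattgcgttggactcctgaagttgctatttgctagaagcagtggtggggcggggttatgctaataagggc
Oas1a: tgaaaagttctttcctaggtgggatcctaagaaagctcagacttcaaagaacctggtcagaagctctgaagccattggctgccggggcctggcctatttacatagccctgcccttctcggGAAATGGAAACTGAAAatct
Rsad2: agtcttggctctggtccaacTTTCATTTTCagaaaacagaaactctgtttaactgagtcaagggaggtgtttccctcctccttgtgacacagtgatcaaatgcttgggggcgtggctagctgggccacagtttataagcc
Ifit3 and Ifit3b lie near each other and carry the same first 117 bases of these stretches, with both cores 34 bases apart, counted from start to start. In Ifit1 the cores start 19 bases apart. Isg15 holds 3 overlapping cores, Bst2 and Oas1a 2 each, and Rsad2 1. Stat2 is the eighth member with a match.

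Levels below are CPM, a gene's counts scaled to a common library total. The Tet2 columns of the table each held a mix of both replicates of their group, and levels are given after that mix was undone. The WT column stayed as it was deposited and stands for 1 sample. It gave whole counts for only 33.48% of genes, its make-up is not known, and its counts below are rounded estimates. Totals ran from 14574823 to 15535778 counts, so 3 counts correspond to 0.193 to 0.206 CPM. The mitochondrial share of counts was 23.6% in WT and 26.8% to 30.2% in the Tet2+/- libraries. Heart muscle markers were abundant in each library, with 10 of them summing to 50590 to 63900 CPM. Tet2+/- vector replicate 1 stood apart by its atrial markers, whose 6 genes summed to 1088 CPM against 17.6 to 91.7 CPM in the other 4 libraries. The labels do not say that the replicates were separate animals, and p-values then rest on a spread that may be technical.

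Of the 32 members, 31 passed a filter of at least 1 CPM in at least 2 libraries and were tested with limma in 1 fit across 12734 genes. Mx1 did not pass. Dhx58 passed through the Tet2+/- libraries alone, since it was under 1 CPM in WT, and the other 30 were at or above 1 CPM in every library. At a false discovery rate (FDR) of 0.05 limma called 0 members in any of the 3 comparisons, where 0% of all tested genes were called in either direction. The smallest adjusted p of a member was 0.471 (Irf9) for Tet2+/- vector against WT, 1 for oridonin against vector and 0.709 (Dhx58) for oridonin against WT. No single member therefore changed by this test, and what follows gives levels, directions and counts.

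Most members were higher in the Tet2+/- vector hearts than in the WT heart. The median log2 fold change was 0.55 over the 31 tested members, against 0.00 over all tested genes, and 27 of the 31 were above 0, as were 50.4% of all genes, and 4 below 0, as were 49.6%. Both vector libraries lay above the WT library for 25 members (80.6%), where 35.4% of all genes did so, and both lay below it for 3 members (9.68%), where 32.3% did. At an unadjusted p under 0.05 limma had 5 members higher against 5.06% of all genes, namely Ifit1, Irf9, Oasl2, Bst2 and Xaf1, and 0 lower against 4.53%. The WT side of each of these values is the same single library. The size differed between the vector libraries, with a median log2 over WT of 0.44 in replicate 1 and 0.71 in replicate 2 across the 32 members, against 0.07 and -0.05 over all tested genes.

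Most members were also higher in the oridonin hearts than in the WT heart. The median log2 fold change was 0.28 over the 31 members and -0.06 over all genes, with 24 members above 0 against 43.8% of all genes. Both oridonin libraries lay above WT for 18 members (58.1%, against 31.9% of all genes) and below it for 4 (12.9%, against 41.7%). At an unadjusted p under 0.05 limma had 2 members higher, Dhx58 and Oasl2, where 2.69% of all genes were, and 0 lower, where 3.53% were. Dhx58 was in the test only through its Tet2+/- levels, so nothing is read from that count. The oridonin replicates did not stand together. Replicate 1 had a median of 0.16 over WT, with 20 of 32 members higher against 41.5% of all genes, and replicate 2 a median of 0.52, with 27 of 32 higher against 48.8%. Without oridonin replicate 1 the median against WT was 0.52.

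Oridonin against vector gave a smaller difference, and its members were not set apart from other genes by whether the replicates overlap. The median log2 fold change was -0.21, against -0.05 over all genes, with 26 of 31 members below 0 against 59.8% of all genes and 5 above 0 against 40.2%. Both oridonin libraries lay below both vector libraries for 6 members (19.4%), a share near the 17.8% of all genes, and above them for 1 member, Dhx58, against 8.37%. At an unadjusted p under 0.05 there were 2 members lower, Mx2 and Samd9l, against 1.93% of all genes, and 0 higher against 0.668%. The count of members above 0 went from 5 to 13 without oridonin replicate 1 and to 10 without vector replicate 2, with medians of -0.10 and -0.09 against 0.00 and -0.14 over all genes. Without vector replicate 2 the members' median thus lay above that of all genes, so the direction relative to other genes turned. This comparison and that with WT use the same vector libraries, so a high vector level enters both.

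**Figure D1:**
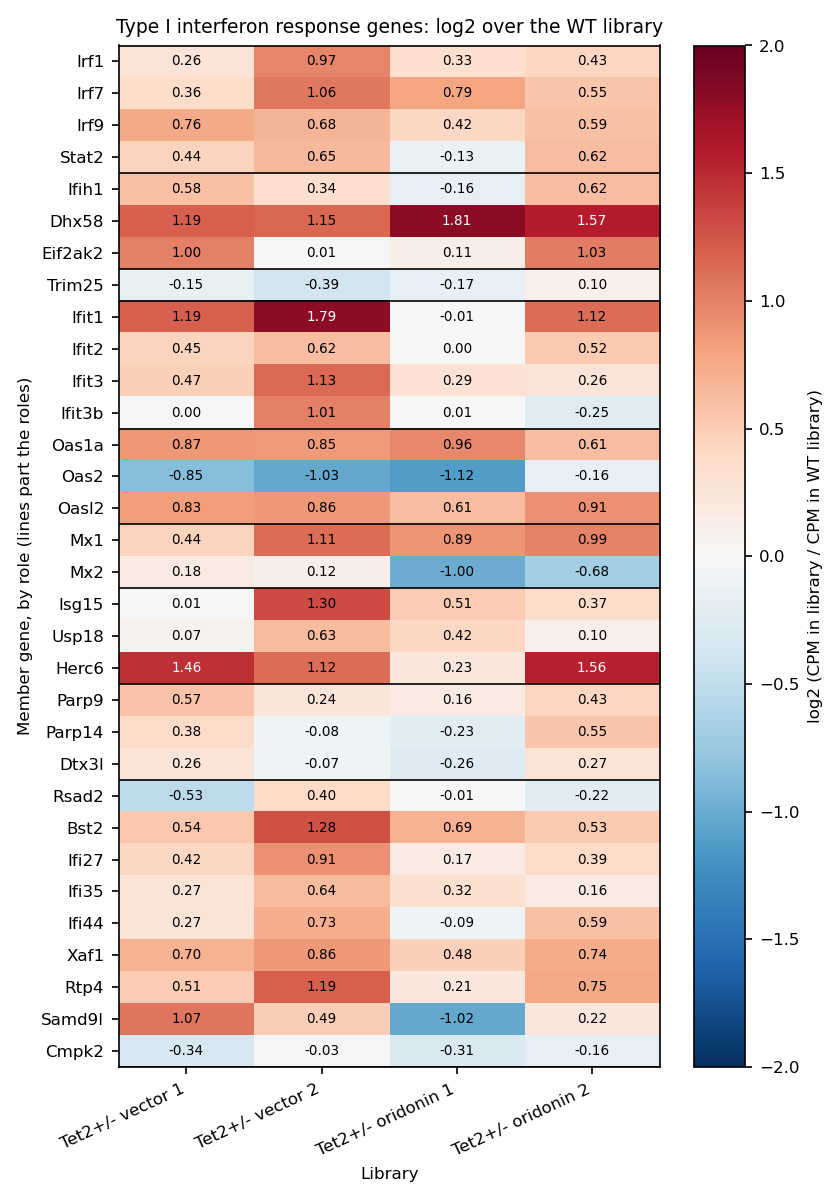
Log2 of the level in each Tet2+/- library over that in the WT library, for the 32 members grouped by role. Most cells are red in the vector columns, oridonin replicate 1 is palest, and Oas2 and Cmpk2 are blue in all 4 columns.

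The factors that carry the signal were all higher in the Tet2+/- vector hearts. Irf9, the DNA-binding part of ISGF3 (chromosome 14, 55603571 to 55610030, GRCm38), was at 16.3 CPM in WT, 27.6 and 26.2 CPM under vector and 21.8 and 24.5 CPM with oridonin. Its 3 groups did not overlap, and its vector replicates were close, at a log2 fold change of 0.72 (standard error, SE, 0.24, adjusted p = 0.471 in limma). Stat2, the partner of IRF9 (chromosome 10, 128270559 to 128292849), was at 16.1 CPM in WT, 21.9 and 25.2 CPM under vector and 14.7 and 24.8 CPM with oridonin. Its oridonin replicates lay on either side of the WT level, so they overlapped both other groups.

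Irf7, the factor that amplifies interferon production (chromosome 7, 141262706 to 141266481), was at 9.10 CPM in WT, 11.7 and 19.0 CPM under vector and 15.7 and 13.3 CPM with oridonin. All 4 Tet2+/- libraries were above WT, and both oridonin values lay within the span of the vector replicates. Irf1, a factor that answers interferon gamma as well (chromosome 11, 53770014 to 53778374), was at 24.7 CPM in WT, 29.5 and 48.6 CPM under vector and 31.2 and 33.3 CPM with oridonin. Its vector mean rested largely on replicate 2. The oridonin over vector log2 fold change of these 4 factors had a median of -0.23, with 4 of 4 below 0. That of Irf7 was -0.05, and it was 0.01 when libraries were scaled by median-of-ratios size factors.

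Among the RNA sensors, Dhx58 encodes LGP2, a helicase that tunes the other sensors (chromosome 11, 100694884 to 100704271). It had 11 counts in WT, 26 and 25 under vector and 38 and 32 with oridonin. The 3 groups did not overlap and their order ran WT, vector, oridonin. The log2 fold change was 1.17 for vector over WT (SE 0.51, adjusted p = 0.536 in limma) and 1.69 for oridonin over WT (SE 0.51, adjusted p = 0.709). It was tested only because it was high enough in the Tet2+/- libraries, so these values are a description. Its counts are low, and 141 exonic bases are shared with an antisense gene, Dhx58os, whose reads cannot be told apart without strand.

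Ifih1 encodes MDA5, the sensor of long double-stranded RNA. It was at 10.7 CPM in WT, 16.0 and 13.6 CPM under vector and 9.57 and 16.5 CPM with oridonin. Eif2ak2 encodes PKR, a kinase that stops translation when it binds such RNA. It was at 7.07 CPM in WT, 14.2 and 7.11 CPM under vector and 7.66 and 14.5 CPM with oridonin. In both genes vector replicate 1 and oridonin replicate 2 were the high libraries, so the split ran across the treatment. Trim25, a ubiquitin ligase of the RIG-I sensor route, was at 40.7 CPM in WT, 36.8 and 31.1 CPM under vector and 36.1 and 43.8 CPM with oridonin. It was among the 4 tested members with a vector over WT fold change below 0, at -0.27.

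The IFIT genes encode proteins that bind viral RNA and block its translation. Ifit2, Ifit3, Ifit3b and Ifit1 lie in this order on chromosome 19, from 34550694 (Ifit2) to 34650009 (Ifit1). Ifit1 was at 4.55 CPM in WT, 10.4 and 15.8 CPM under vector and 4.51 and 9.95 CPM with oridonin. It had the largest vector over WT fold change of the tested members, at log2 1.49 (SE 0.54, adjusted p = 0.497 in limma), and both oridonin values lay below both vector values. Oridonin over vector stood at log2 -0.94 (SE 0.44, adjusted p = 1 in limma). Oridonin replicate 2 lay just under the lower vector value, a smaller gap than that between the oridonin replicates.

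Ifit3 was at 12.1 CPM in WT, 16.7 and 26.5 CPM under vector and 14.8 and 14.5 CPM with oridonin. All 4 Tet2+/- values were above WT, and both oridonin values lay below both vector values. Ifit3b, which lies nearby, was at 4.57 CPM in WT, 4.57 and 9.19 CPM under vector and 4.58 and 3.84 CPM with oridonin. Only vector replicate 2 stood out. Ifit3 and Ifit3b are near copies. In GENCODE release M21, 31.7% of the 100-base stretches of the longest Ifit3 transcript also occur in Ifit3b and 27.4% the other way, so how reads were divided between them is uncertain. Ifit2 was at 16.0 CPM in WT, 21.8 and 24.5 CPM under vector and 16.0 and 22.9 CPM with oridonin. The 4 had a median log2 fold change of 0.66 for vector over WT, with 4 of 4 above 0, and of -0.57 for oridonin over vector, with 4 of 4 below 0.

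**Figure D2:**
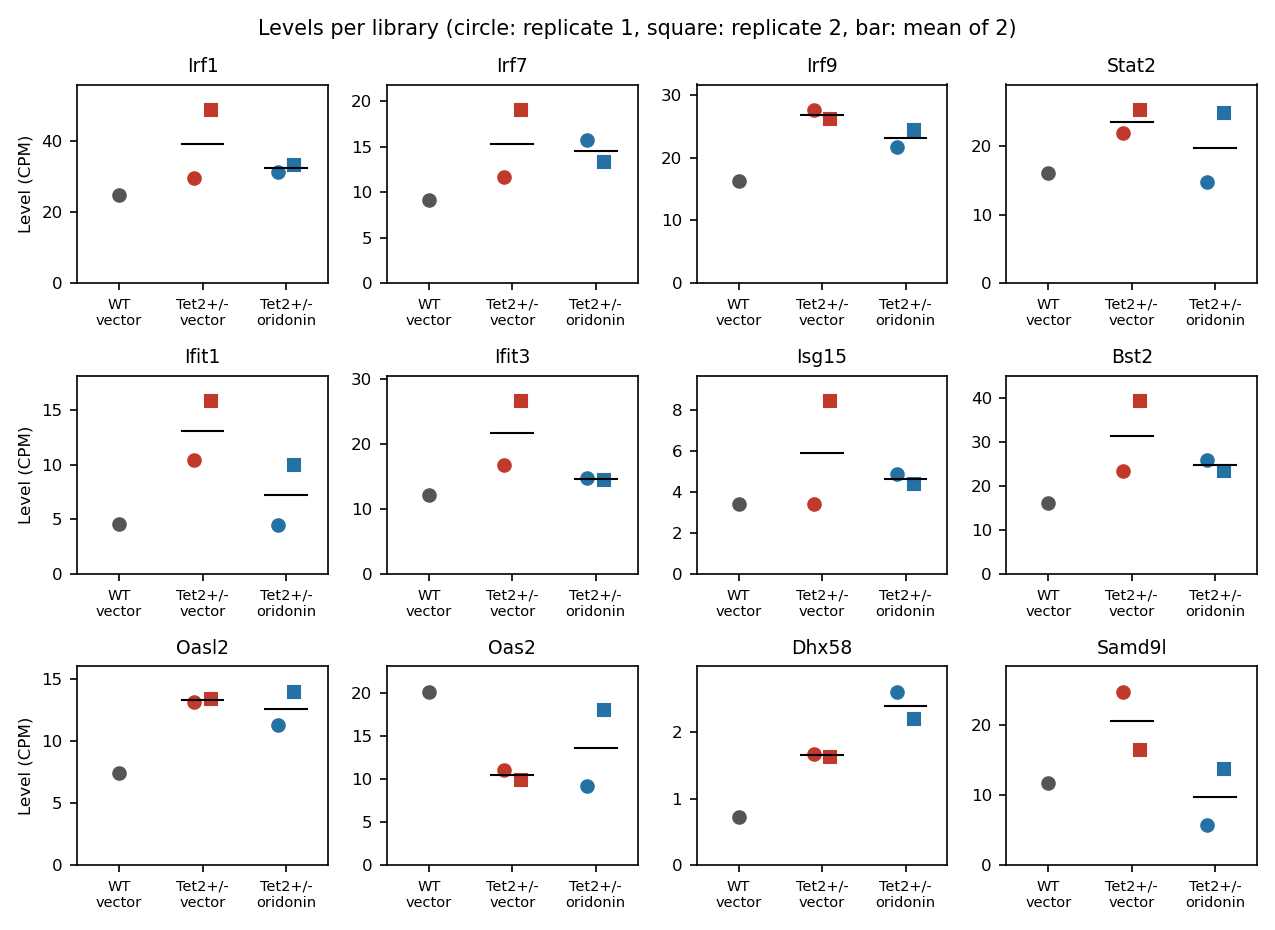
Level in CPM of 12 members in each library, with WT in grey, Tet2+/- vector in red and Tet2+/- oridonin in blue, and a bar at the mean of 2 replicates. Irf9, Oasl2 and Dhx58 have close vector replicates above WT, and Oas2 is the only panel in which every Tet2+/- library lies below WT.

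The OAS genes, whose products sense double-stranded RNA and feed RNase L, lay on both sides of WT. Oasl2 (chromosome 5, 114896936 to 114912234) was at 7.38 CPM in WT, 13.1 and 13.4 CPM under vector and 11.3 and 13.9 CPM with oridonin. All 4 Tet2+/- libraries were above WT. Oasl2 stood at log2 0.84 over WT under vector and 0.76 with oridonin (SE 0.28 each, adjusted p = 0.474 and 0.791 in limma). Oas1a was at 2.20 CPM in WT, 4.06 and 3.98 CPM under vector and 4.31 and 3.36 CPM with oridonin, with the vector and oridonin replicates overlapping. Its longest transcript shares 40.9% of 100-base stretches with Oas1g, so part of its reads could belong there.

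Oas2 stood the other way. It lies on chromosome 5 at 120730333 to 120749853 and was at 20.1 CPM in WT, 11.1 and 9.85 CPM under vector and 9.23 and 18.0 CPM with oridonin. Every Tet2+/- value was below WT, at log2 -0.94 under vector (SE 0.43, adjusted p = 0.542 in limma). The higher oridonin value, in replicate 2, nearly reached the WT level.

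The MX genes encode dynamin-like GTPases that trap viral particles. Mx2 was at 2.22 CPM in WT, 2.51 and 2.41 CPM under vector and 1.09 and 1.37 CPM with oridonin. Vector and WT were close and both oridonin values lay below all 3, at log2 -0.99 for oridonin over vector (SE 0.40, adjusted p = 1 in limma). These are 16 and 20 counts against 39 and 37. Mx1 had 7 counts in WT, 10 and 16 under vector and 13 and 14 with oridonin, which is too few to place the groups.

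The ISG15 system attaches the small protein ISG15 to other proteins, with Herc6 as a ligase and Usp18 as the enzyme that takes it off and dampens the receptor. Isg15 was at 3.40 CPM in WT, 3.41 and 8.41 CPM under vector and 4.85 and 4.39 CPM with oridonin. Vector replicate 1 was at the WT level and replicate 2 alone was high, and both oridonin libraries lay between the vector replicates. Usp18 was at 4.30 CPM in WT, 4.51 and 6.65 CPM under vector and 5.74 and 4.60 CPM with oridonin, again with vector replicate 2 highest. Herc6 had 20 counts in WT, 58 and 45 under vector and 23 and 58 with oridonin. Vector replicate 1 and oridonin replicate 2 had the same count. Herc6 also shares 1269 exonic bases with the predicted gene Gm45193.

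Parp9, Dtx3l and Parp14 sit together on chromosome 16 between 35832874 and 35972605 and encode partners in ADP-ribosylation and ubiquitination. Parp9 was at 14.6 CPM in WT, 21.6 and 17.2 CPM under vector and 16.3 and 19.7 CPM with oridonin. Dtx3l, which starts next to Parp9 on the other strand and shares 367 exonic bases with it, was at 19.1 CPM in WT, 22.9 and 18.2 CPM under vector and 15.9 and 23.1 CPM with oridonin. Parp14 was at 34.5 CPM in WT, 44.9 and 32.5 CPM under vector and 29.4 and 50.5 CPM with oridonin. In all 3 genes vector replicate 1 and oridonin replicate 2 were the highest libraries. The groups of Dtx3l and Parp14 overlapped in every comparison.

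The other effectors include membrane, lipid and nucleotide enzymes. Bst2, or tetherin, which holds budding virus at the cell surface (chromosome 8, 71534255 to 71537456), was at 16.1 CPM in WT, 23.4 and 39.2 CPM under vector and 26.0 and 23.3 CPM with oridonin. Over WT it stood at log2 0.91 under vector and 0.61 with oridonin (SE 0.35 each, adjusted p = 0.511 and 0.826 in limma). Xaf1, an apoptosis-linked factor, was at 6.43 CPM in WT, 10.4 and 11.7 CPM under vector and 8.96 and 10.8 CPM with oridonin. Both genes were above WT in all 4 Tet2+/- libraries.

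Ifi27, a mitochondrial and nuclear-envelope protein gene, was at 28.0 CPM in WT, 37.5 and 52.8 CPM under vector and 31.4 and 36.6 CPM with oridonin. The oridonin values lay between WT and vector without overlap. Rtp4, a receptor chaperone gene, was at 5.91 CPM in WT, 8.43 and 13.5 CPM under vector and 6.84 and 9.95 CPM with oridonin. Ifi35 was at 10.8 CPM in WT, 13.1 and 16.8 CPM under vector and 13.5 and 12.1 CPM with oridonin. Ifi44 had 51 counts in WT, 64 and 87 under vector and 47 and 75 with oridonin. For these last 3 the oridonin and vector replicates overlapped, and vector replicate 2 was highest.

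Samd9l, a restriction factor that acts on translation (chromosome 6, 3372257 to 3399572), was at 11.7 CPM in WT, 24.7 and 16.5 CPM under vector and 5.74 and 13.7 CPM with oridonin. Its oridonin values lay below both vector values and on either side of WT. Oridonin over vector stood at log2 -1.19 (SE 0.45, adjusted p = 1 in limma), the lowest value of the tested members. Without oridonin replicate 2 it was -1.81 at an adjusted p = 0.0252 in limma, and with that library in the fit it was not called.

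Rsad2 and Cmpk2 are neighbours on chromosome 12 that encode viperin and the kinase that feeds its reaction. Rsad2 was at 20.9 CPM in WT, 14.5 and 27.6 CPM under vector and 20.7 and 17.9 CPM with oridonin. Cmpk2 was at 14.7 CPM in WT, 11.6 and 14.3 CPM under vector and 11.8 and 13.1 CPM with oridonin. Neither was higher in the Tet2+/- hearts, with vector over WT log2 fold changes of -0.06 for Rsad2, which was 0.03 with library totals without mitochondrial genes, and -0.19 for Cmpk2.

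**Figure D3:**
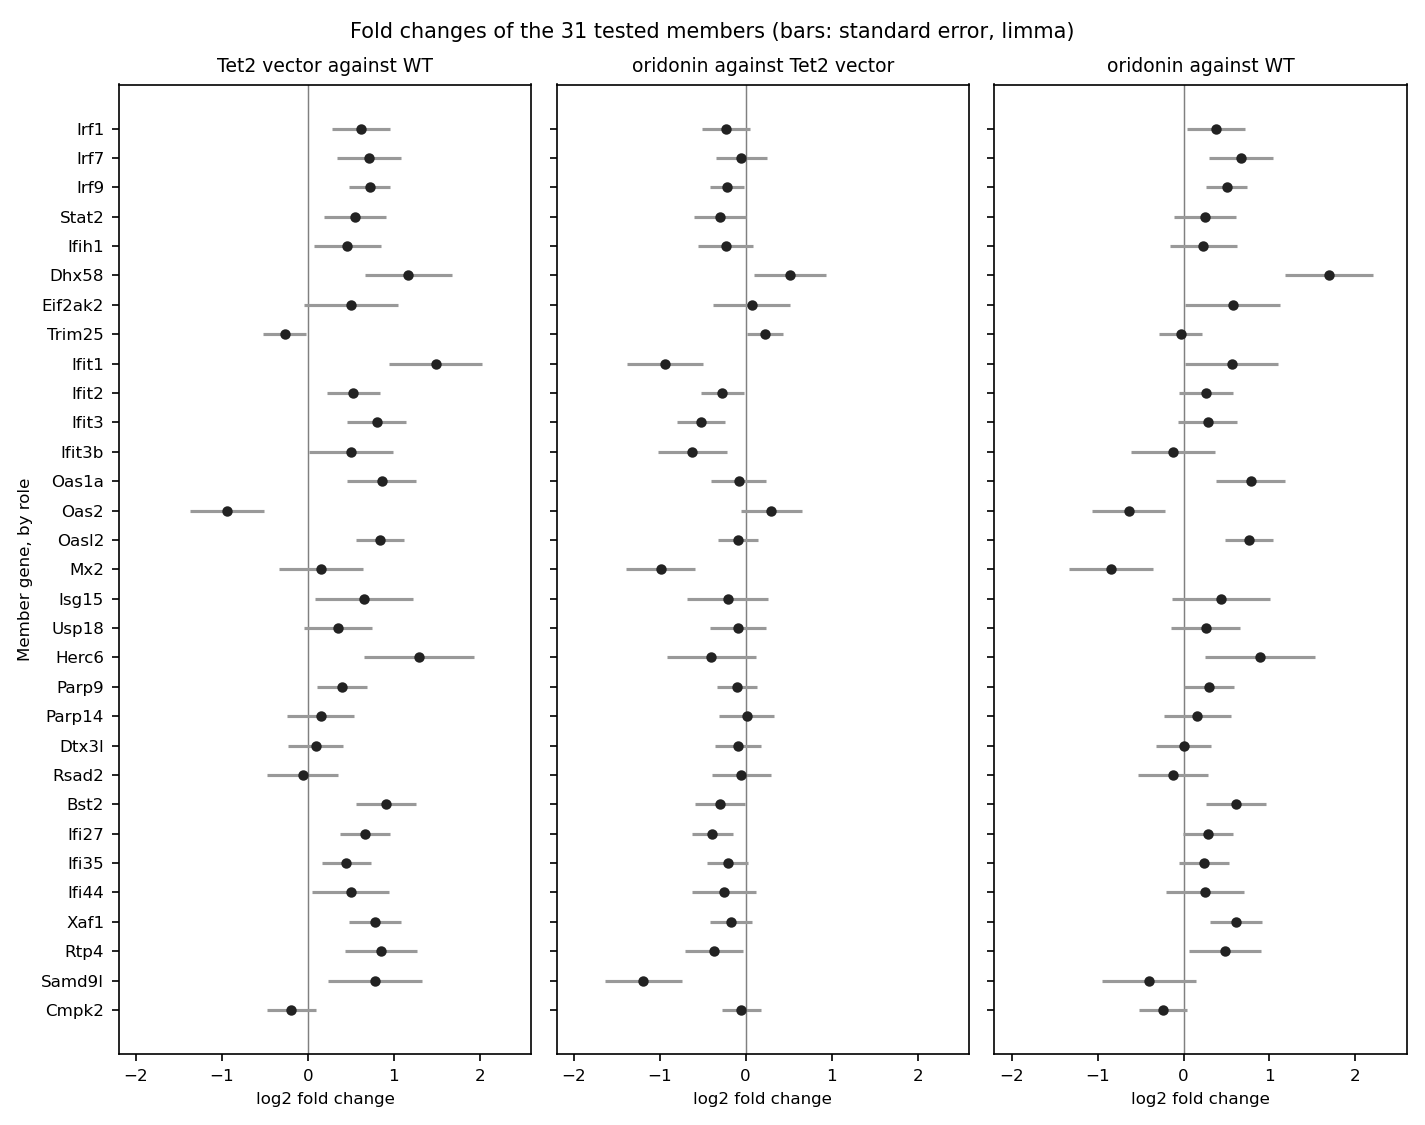
Log2 fold change of the 31 tested members in each of the 3 comparisons, with bars of 1 standard error from limma. In the left panel 27 points lie right of 0, and in the middle panel 26 lie left of 0, many within 1 standard error of it.

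The members split by the length of their transcripts. In the vector hearts replicate 1 minus replicate 2 ran from -1.29 for Isg15, with 756 exonic bases, to 0.99 for Eif2ak2, with 4313. Across the 31 tested members its correlation with log2 exon length was r = 0.69 (Spearman rho 0.71). In the oridonin hearts the relation had the opposite sign, with r = -0.62 (rho -0.67) and differences from 0.35 for Oas1a, with 1885 bases, to -1.32 for Herc6, with 4767. The members share the same 4 libraries, and over 12378 tested genes with a length the same relation stood at r = 0.44 and -0.31, so it was not limited to interferon genes.

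Shorter members such as Isg15, Bst2, Irf7 and Ifit3b were thus highest in vector replicate 2, and longer ones such as Eif2ak2, Samd9l and Parp14 were higher in replicate 1 than 2 of the vector group and in replicate 2 than 1 of the oridonin group. Divided at the median exon length of 3102 bases, the 15 shorter members had a median log2 of 0.71 for vector over WT, with 15 of 15 above 0, where shorter genes in general had 0.15. The 16 longer members had 0.48, with 12 of 16 above 0, where longer genes in general had -0.12. For oridonin over vector the medians were -0.25 in shorter and -0.10 in longer members, against -0.08 and -0.02 in genes of like length. Both member medians for vector over WT were above 0. The vector over WT difference also fell with log2 exon length, at r = -0.32 over the members and -0.24 over all genes with a length. The part of length or RNA quality in the replicate differences and in vector over WT was not tested.

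**Figure D4:**
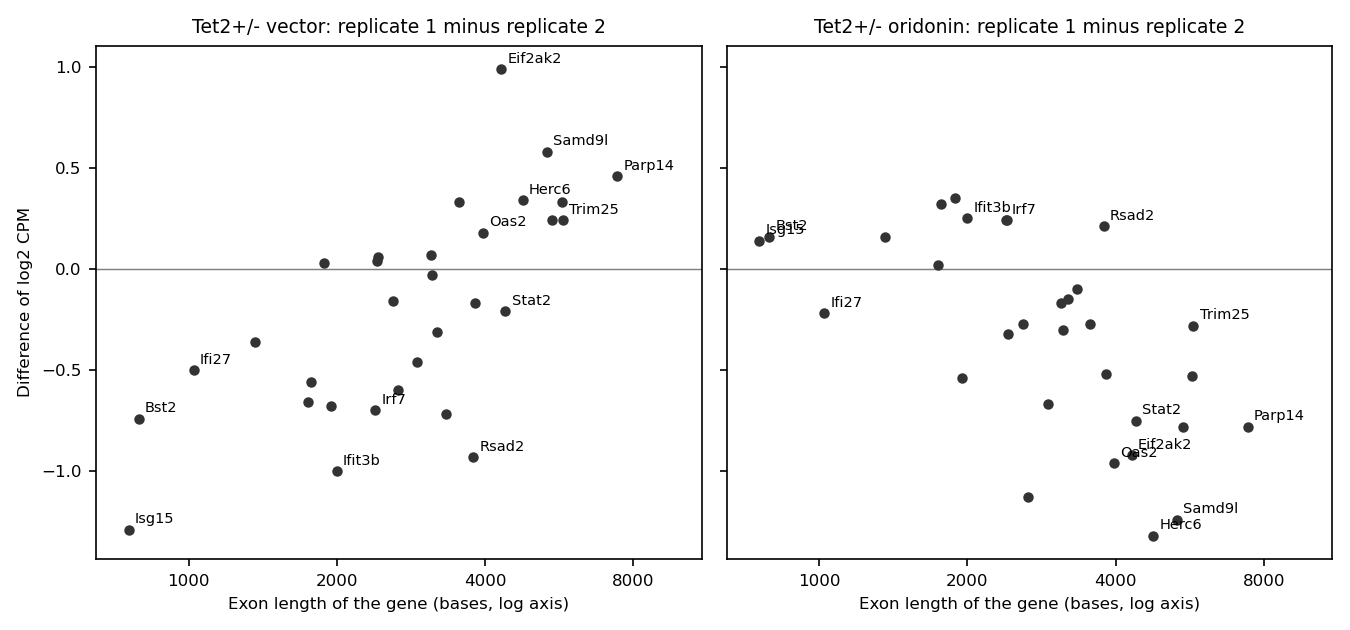
Difference of log2 CPM between replicate 1 and replicate 2 of the vector group (left) and of the oridonin group (right) against exon length on a log axis, 1 point for each of the 31 tested members. Points climb with length on the left (r = 0.69) and descend on the right (r = -0.62).

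Other genes of the pathway were on lists of their own. Of 20 interferon genes listed, only Ifng was among the 17818 gene symbols, with 2 counts in vector replicate 1 and 0 in the other 4 libraries. It did not pass the filter, so no interferon gene was tested. The kinase gene Jak1 was at 223 CPM in WT, 148 and 107 CPM under vector and 132 and 148 CPM with oridonin, below WT in all 4. The receptor gene Ifnar1 was at 28.2 CPM in WT, 29.7 and 22.7 CPM under vector and 23.5 and 27.9 CPM with oridonin, with no order by group.

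Sensors and adaptors outside the members had a median log2 fold change of 0.01 for vector over WT over 15 tested genes, with 8 above 0 against 50.4% of all genes. Limma called 0 of them, with 1 higher at an unadjusted p under 0.05, where 5.06% of all genes were. Zbp1, a sensor of Z-form nucleic acid, had 16 counts in WT, 57 and 51 under vector and 37 and 51 with oridonin (vector over WT log2 1.70, SE 0.45, adjusted p = 0.417 in limma). Sting1, the adaptor of cytosolic DNA sensing, was at 4.78 CPM in WT, 7.08 and 7.63 CPM under vector and 7.52 and 9.54 CPM with oridonin. Both were above WT in all 4 Tet2+/- libraries. Tlr4 and Tbk1, also among the 4 of this list with the smallest p, were below WT in all 4. Tlr4 was at 20.3 CPM in WT, 13.7 and 7.56 CPM under vector and 9.71 and 13.4 CPM with oridonin. Tbk1 was at 23.2 CPM in WT, 18.9 and 15.1 CPM under vector and 16.1 and 20.2 CPM with oridonin. Among 9 tested brakes of the pathway 6 were above 0 for vector over WT, against 50.4% of all genes, and 3 below 0, against 49.6%. Ptpn11, the phosphatase SHP2, was at 518 CPM in WT, 268 and 216 CPM under vector and 248 and 286 CPM with oridonin. Ptpn2 went the other way, at 7.86 CPM in WT, 14.0 and 13.0 CPM under vector and 9.5 and 12.2 CPM with oridonin.

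A list of 56 other interferon-stimulated genes, 49 of them tested, served as a wider view. Its median log2 fold change was 0.37 for vector over WT with 37 of 49 above 0 (all genes 50.4%), -0.07 for oridonin over vector with 33 of 49 below 0 (59.8%), and 0.29 for oridonin over WT with 39 of 49 above 0 (43.8%). Limma called 0 in each. At an unadjusted p under 0.05 it had 5 higher and 1 lower for vector over WT, where 5.06% and 4.53% of all genes were. For oridonin over vector it had 0 higher and 1 lower, against 0.668% and 1.93% of all genes, and for oridonin over WT 3 higher and 1 lower, against 2.69% and 3.53%. Uba7, the enzyme that activates ISG15, had 185 counts in WT, 394 and 383 under vector and 306 and 388 with oridonin. Ifitm3, which blocks viral entry, was at 52.9 CPM in WT, 82.3 and 113 CPM under vector and 78.9 and 76.1 CPM with oridonin. Lgals3bp, a secreted glycoprotein gene, was at 28.1 CPM in WT, 42.0 and 49.5 CPM under vector and 43.8 and 44.0 CPM with oridonin. All 3 were above WT in all 4 Tet2+/- libraries, and the oridonin replicates overlapped the vector replicates in Uba7 and Lgals3bp. Of the 49, 12 were below 0 for vector over WT, against 49.6% of all genes. Trafd1 was at 78.0 CPM in WT, 48.6 and 56.8 CPM under vector and 50.9 and 52.1 CPM with oridonin, below WT in all 4. Ifit1bl1 was at 6.84 CPM in WT, 6.69 and 6.65 CPM under vector and 4.58 and 3.22 CPM with oridonin.

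Markers of several cell types also differed between libraries. The 18 macrophage and monocyte markers summed to 449 CPM in WT, 797 and 509 CPM under vector and 490 and 483 CPM with oridonin, and 11 of the 18 (61.1%) had both vector libraries above WT, against 35.4% of all genes. Their sum was highest in vector replicate 1, whereas the members' median over WT was highest in vector replicate 2. The neutrophil markers, 5 of 6 of them in the table, summed to 2.72 CPM in WT, 7.98 and 12.9 CPM under vector and 4.58 and 6.24 CPM with oridonin, so vector replicate 2 was highest there too. The 10 fibroblast markers summed to 3015 CPM in WT, 3294 and 3444 CPM under vector and 2062 and 1957 CPM with oridonin. Gsn alone made up 1940 CPM of the WT sum. For 7 of the 10 (70%) both vector libraries lay above WT, against 35.4% of all genes, and for 2 below it, against 32.3%. The median log2 fold change of the 10 for vector over WT was 0.59. For 9 of 10 both oridonin libraries lay below both vector libraries, against 17.8% of all genes. The 11 endothelial markers summed to 1412 to 1652 CPM. Lymphocytes were near the limit of detection: 12 T and NK cell markers summed to 2.6 to 4.51 CPM and 6 B cell markers to 0.322 to 2.40 CPM. Siglech, a marker of the plasmacytoid dendritic cells that make interferon, had 2 to 6 counts. The 5 fat markers summed to 21.2 CPM in vector replicate 1 and 7.20 CPM in oridonin replicate 2, against 0.410 to 1.12 CPM in the other libraries. Red cell markers, 4 of 5 of them in the table, summed to 366.1 CPM in WT, 247.5 and 146.9 CPM under vector and 386.6 and 318.9 CPM with oridonin. The part of macrophage, neutrophil, fibroblast, fat and red cell numbers in the members' levels was not tested.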

How the data were processed

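Per the labels' protocols, poly-A RNA of hearts went into NEBNext Ultra libraries, with no word on strand. The submitters' processing notes name the build mm10. An aligner, counter or annotation: not given in the sources used here. What the authors deposited is a table of log2 values, 17818 gene symbols by 5 libraries, and 0 columns lacked a sample. From the values, each is log2 of CPM with 0.5 added to the count. Each Tet2 column holds 0.75 of its own log2 value and 0.25 of the other replicate's, so replicate differences are 0.5 times their size and group means are kept. Undoing this gave whole counts (within 0.01) for 99.92% to 99.94% of genes, against 9.06% to 10.4% as deposited. The WT column gave whole counts for 33.48% of genes at its own scale and was used as it stands, and what it holds is not known. No source used here says how the mix arose.

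Limma 3.58.1 (trend, robust, group as the only term, all 5 libraries, 2 residual degrees of freedom) was fitted to 12734 genes with at least 1 CPM in 2 libraries, with Benjamini-Hochberg adjustment at 0.05. With 1 WT library, its spread is taken to equal that of the Tet2 groups. The script was tested on simulated data. Members, lists and the naming rule were chosen with earlier results of these data known. All members are named. Values per library go to those with the smallest p, the factors and members of differing direction, and beyond that rule to most others. Up to 4 genes of each pathway list with the smallest p could be named, and Ifnar1 and the marker genes were added after their values were seen. Positions, exon lengths and shared 100-base stretches come from GENCODE M21 (GRCm38). The 14 alternatives cover values, test, scaling, filter, prior count, replicate numbers and left-out libraries.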

Additional observations from a re-analysis of the deposited data

How the results depend on the processing

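On the deposited values, with the mix left in, limma called 2334 genes and 13 members for Tet2+/- vector against WT, 98 genes and 0 members for oridonin against vector, and 996 genes and 2 members for oridonin against WT, where replicate differences are smaller by construction. The replicate numbers were not shown to pair samples: replicate differences of the vector and oridonin groups correlated at -0.30 over 12734 genes. With a replicate block limma called 10, 9 and 6 genes in these comparisons and 0 members. With the numbers crossed, a replicate block added after seeing the data, it called 432, 44 and 184 genes, with 1 member, Samd9l, in the first. Leaving out 1 Tet2+/- library at a time gave 2 to 107, 3 to 32 and 0 to 24 genes, highest each time without oridonin replicate 2, and for oridonin against vector 0 to 1 members called and 6 to 13 members higher. It moved the members' median log2 between 0.44 and 0.68, between -0.37 and -0.09 and between 0.16 and 0.52. With median-of-ratios size factors 8 members were higher for oridonin against vector. Voom, the other scaling, no filter, a filter of 5 CPM, a prior of 2 counts and no robust step called 0 genes in every comparison, at 2 residual degrees of freedom. Library totals without mitochondrial genes, which took 23.6% of WT and 26.8% to 30.2% of Tet2+/- counts, moved the median of all genes by 0.10 for vector against WT and that of the members from 0.55 to 0.64. At 7 to 16 counts Mx1 shows no difference that could be detected at this depth.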
